A study of Homo sapiens with 24 samples.

Results

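The NRF2 antioxidant and detoxification genes are a named set of 38 human genes, chosen by symbol and each found once among the 60675 Ensembl genes counted in every library. They were followed through 24 RNA-seq libraries of MDA-MB-231 and MDA-MB-436, established cell lines from triple-negative breast cancers. In each line, 3 libraries came from cells with a short hairpin RNA labelled as directed at MDM2, and 3 from cells with a non-targeting (NT) shRNA. In each line, 3 further libraries came from cells given YX-2-30, labelled as an MDM2 PROTAC, and 3 from cells given its vehicle DMSO. A PROTAC is a small molecule that brings a protein to a ubiquitin ligase for degradation, and MDM2 is itself a ubiquitin ligase. All cells grew in DMEM with serum and antibiotics. Each line is a single tumour's line, and the labels give no hairpin sequence, dose or treatment time. Nor do they say if a group's 3 libraries came from separate cultures, so the p-values measure only the spread between libraries. The study asked which transcripts change with loss of MDM2, and here that question is put to the NRF2 genes.

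NRF2, the product of NFE2L2, is a transcription factor that KEAP1 normally holds for ubiquitination by a CUL3 ligase. Oxidants and electrophiles modify KEAP1, NRF2 then accumulates, pairs with small MAF proteins and binds antioxidant response elements near its target genes. The targets make glutathione, regenerate thioredoxin, supply NADPH, break down heme, store iron, and reduce, conjugate and export reactive compounds. In cancer cells the same program is known for protecting against oxidative stress and drugs.

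Total counts ran from 33413988 to 174744841 per library, and both extremes were MDA-MB-436 libraries. Replicate pairs within a group differed by 31.2 to 61.3 chi-square units per degree of freedom over genes. The MDM2 PROTAC libraries of MDA-MB-436 stood apart at 80.3 to 102. No library was thus a duplicate of another in its group, and libraries of different groups were not compared in this way. Genes are given in CPM, the share of a library's counts put on a common total, after trimmed-mean (TMM) scaling, and a gene was called higher or lower at an adjusted p under 0.05 in edgeR's quasi-likelihood test over all genes. For MDM2 RNA, the check of the labels, no fall was called in any comparison. In MDA-MB-231 it was at 24.3, 23.3 and 30.3 CPM in libraries labelled MDM2 shRNA, against 19.6, 22.4 and 11.2 CPM with NT shRNA (log2 change 0.55 ± 0.24, SE, adjusted p = 0.137). In MDA-MB-436 it was at 14.8, 28.6 and 27.5 CPM in libraries labelled MDM2 shRNA, against 21.97, 30.6 and 23.8 CPM with NT shRNA (-0.11 ± 0.22, adjusted p = 0.78). With the PROTAC, which acts on protein, the MDM2 changes were 0.26 in MDA-MB-231 (adjusted p = 0.513) and -0.61 in MDA-MB-436 (adjusted p = 0.0573). Whether the hairpin lowered MDM2 can thus not be read from these RNA values.

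The lines carried keratins and vimentin, with KRT8 means of 263 to 580.2 CPM in every group, while CDH1 was at most at 0.667 CPM in any library. In MDA-MB-436 the sum of 5 epithelial markers, nearly all KRT8 and KRT18, was 520.0 to 578 CPM in libraries labelled MDM2 shRNA against 984 to 1121 CPM with NT shRNA, and 439 to 547 CPM with the PROTAC against 855 to 913 CPM with DMSO. KRT8 and KRT18 fell there with both agents, while EPCAM rose by 0.58 and 0.60 (log2, adjusted p = 0.0092 and 0.00734), and KRT19 and CDH1, both low, were called higher with the hairpin label. In MDA-MB-231 the epithelial sum overlapped between each pair. The sum of 4 mesenchymal markers, mostly VIM, was lower with treatment in both lines, at 3121 to 3388 CPM in MDA-MB-231 libraries labelled MDM2 shRNA against 4905 to 6426 CPM with NT shRNA, and at 890 to 896 CPM in those of MDA-MB-436 against 1043 to 1140 CPM. FN1, another of the 4, rose in MDA-MB-231 by 0.31 with the hairpin label and 0.44 with the PROTAC (adjusted p = 0.00198 and 0.000173). The 5 fibroblast markers summed to at most 31.4 CPM, of which COL1A1 was higher in treated MDA-MB-231, while DCN was at 0. Of the leukocyte markers PTPRC, CD3E, CD14 and LYZ, CD3E was at most at 0.0494 CPM and LYZ at 0.832 CPM in any library. CD14 was lower with both agents in MDA-MB-436, at mean levels of 5.87 and 6.65 CPM against 11.9 with NT shRNA and 11.2 with DMSO. PTPRC was lower with both in MDA-MB-231, at 3.27 and 3.12 CPM against 4.87 with NT shRNA and 4.75 with DMSO. LYZ went the other way, called higher with the PROTAC in MDA-MB-436 at a mean of 0.422 CPM against 0 with DMSO (adjusted p = 0.0278). Endothelial markers summed to at most 11.1 CPM, hepatocyte markers to at most 0.808 CPM, and the 3 receptors low in triple-negative tumours, nearly all ERBB2, to 39.9 to 88.6 CPM. In bulk RNA, fewer cells of one state and less RNA per cell cannot be told apart, and the part of the marker shifts in the results below was not tested.

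The 2 lines differed in what the NRF2 genes did. In MDA-MB-436 falls outnumbered rises: 19 of 38 members were called lower and 4 higher in libraries labelled MDM2 shRNA, beside 14.4% and 16% of all genes tested. With the PROTAC 20 of 38 were called lower and 4 higher, beside 15.1% and 17.3% of all genes. The median log2 change of the members was -0.35 for the shRNA and -0.50 for the PROTAC, against 0.04 over all genes in both. Among genes averaging 10 CPM or more, where calls are commoner, 18 of 31 members were called lower with each agent, beside 25.9% of such genes for the shRNA and 26.9% for the PROTAC. Without the deepest and the shallowest library, 19 members were called lower in libraries labelled MDM2 shRNA and 23 in PROTAC libraries.

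In MDA-MB-231 the set divided. In libraries labelled MDM2 shRNA, 9 of 37 members tested were called higher and 7 lower, beside 11.1% and 11.6% of all genes. With the PROTAC the same counts were 9 higher and 7 lower, beside 11.1% and 11.5% of all genes. Among the 29 members averaging 10 CPM or more, 8 were called higher and 5 lower for the shRNA. For the PROTAC 7 of the 29 were called higher and 5 lower. The share of all genes at that level is not given here, so the all-gene shares may understate the background. The members' median was 0.10 for the shRNA and 0.13 for the PROTAC, and that of all genes 0.014 and -0.006. With library totals in place of TMM, the split became 15 higher and 5 lower for the shRNA and 15 higher and 4 lower for the PROTAC. All genes shifted too under that scaling. For the shRNA 17.2% of them were called higher and 8.1% lower, and for the PROTAC 16.1% and 8.44%. Leaving out MDM2 shRNA replicate 1 left 4 lower members for the shRNA, and leaving out PROTAC replicate 3 left 4 for the PROTAC. AKR1B15 was not tested in this line, where 6 counts were found in 12 libraries.

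The calls of the 4 comparisons, set side by side, sort most members. GCLM and HMOX1 were higher with both agents in MDA-MB-231 and lower with both in MDA-MB-436. OSGIN1 was higher in all 4 comparisons. The 5 members TKT, ME1, IDH1, ABCC1 and ABCC3 were lower in all 4. The 7 members GSR, TXNRD1, PRDX1, PGD, TALDO1, NQO1 and AKR1C1 were lower with both agents in MDA-MB-436 and called in neither comparison of MDA-MB-231. Another 7, GCLC, FTH1, AKR1B10, AKR1C2, AKR1C3, GPX4 and UGDH, were called in none. These patterns were not counted over all genes, so whether they are particular to the members cannot be said. The counts by role below rest on at most 8 genes each, too few to read as particular to a role.

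**Figure D1:**
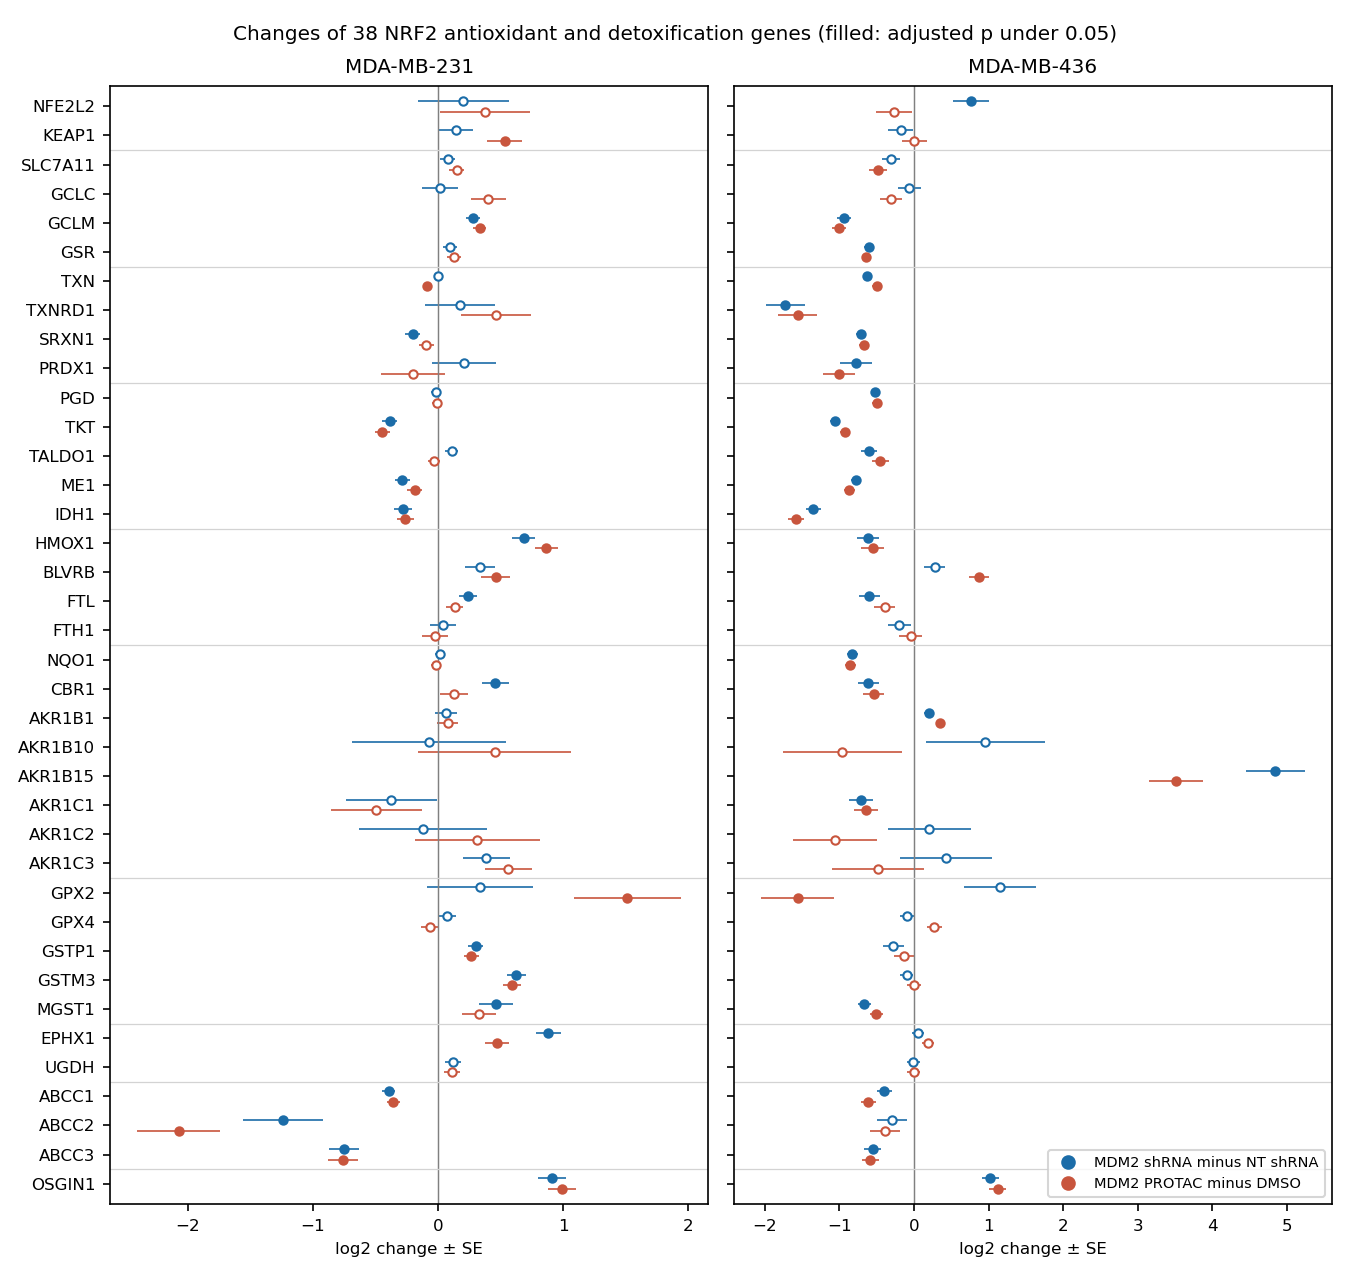
Log2 change (x axis, ± SE) of the 38 genes (y axis, grouped by role) in MDA-MB-231 (left) and MDA-MB-436 (right), for MDM2 shRNA minus NT shRNA in blue and MDM2 PROTAC minus DMSO in red, with filled points called. Most filled points lie left of 0 in MDA-MB-436 and on both sides of 0 in MDA-MB-231.

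The promoters show which members carry the letters that NRF2 is known to bind. Promoter windows of 250 bases before to 50 bases after a transcript start, from RefSeq on GRCh38.p14, were matched for 29 of the 38 members, with 41 windows. The core of the antioxidant response element, TGACNNNGC on either strand, was found in 12 of the 41 windows (29.3%) and in 13.3% of all 35116 windows. The longer form, this core followed by A on the same strand, was found in 8 of 41 (19.5%) and in 3.18% of all windows. A match describes letters only, and its absence from a window says nothing of elements elsewhere. The core was found in 11 member genes. Of these, 7 are shown, chosen with their calls known, for members whose levels the results turn on, read 5′ to 3′ on the gene's strand, with the core or its reverse complement in capitals.
GCLM: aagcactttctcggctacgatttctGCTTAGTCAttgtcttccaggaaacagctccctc
TXNRD1: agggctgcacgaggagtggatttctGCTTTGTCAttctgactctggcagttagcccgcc
CBR1: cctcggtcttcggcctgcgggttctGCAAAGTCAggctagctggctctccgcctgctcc
ME1: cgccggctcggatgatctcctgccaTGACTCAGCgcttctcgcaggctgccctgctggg
IDH1: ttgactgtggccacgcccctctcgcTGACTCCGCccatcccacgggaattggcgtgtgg
GSTP1: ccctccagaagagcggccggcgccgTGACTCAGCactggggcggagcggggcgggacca
EPHX1: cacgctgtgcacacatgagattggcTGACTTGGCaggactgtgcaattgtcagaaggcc
They lie at chr1:93909431-93909489 (GCLM), chr12:104286905-104286963 (TXNRD1), chr21:36069840-36069898 (CBR1), chr6:83431155-83431213 (ME1), chr2:208255181-208255239 (IDH1), chr11:67583721-67583779 (GSTP1) and chr1:225825251-225825309 (EPHX1). GCLM, ME1 and IDH1 are on the minus strand and the others on the plus strand. The TXNRD1, IDH1, GSTP1 and EPHX1 stretches lie inside the outer bounds of those genes in GENCODE 29, and that of GCLM crosses its bound. The GCLM, TXNRD1 and CBR1 stretches hold the longer form read on the other strand, and GSTP1 and EPHX1 hold it on the printed strand. All of GCLM, TXNRD1, CBR1, ME1 and IDH1 were lower with both agents in MDA-MB-436, and GCLM, GSTP1 and EPHX1 were higher with both in MDA-MB-231. That the 7 carry calls follows from their choice. Over all 38 members, 18 were lower with both agents in MDA-MB-436 and 6 higher with both in MDA-MB-231. Whether members with the core changed otherwise than those without was not tested. Of the 4 genes not shown, PGD and MGST1 were lower with both agents in MDA-MB-436, and MGST1 was higher with the hairpin label in MDA-MB-231. KEAP1 was called only with the PROTAC in MDA-MB-231, where it was higher. GPX2 was called only with the PROTAC, higher in MDA-MB-231 and lower in MDA-MB-436.

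The 2 regulators were each called in 1 of the 4 comparisons. NFE2L2, which encodes NRF2, was at 101, 61.2 and 59.5 CPM in MDA-MB-436 libraries labelled MDM2 shRNA, against 47.1, 42.3 and 41.4 CPM with NT shRNA (0.77 ± 0.24, adjusted p = 0.0317). The groups did not overlap, but the call was lost without any 1 of the 3 NT shRNA libraries (adjusted p 0.0609 to 0.088) or without MDM2 shRNA replicate 1 (0.46, adjusted p = 0.159). It also shares 1054 exon bases with the same-strand gene AC019080.1, from which its reads may not be separable. With the PROTAC in that line NFE2L2 was at 48.2, 54.9 and 51.2 CPM, against 86.7, 44.9 and 54.6 CPM with DMSO (-0.27 ± 0.24, adjusted p = 0.438). In MDA-MB-231 libraries labelled MDM2 shRNA it was at 30.1, 56.1 and 46.3 CPM, against 21.7, 47.1 and 46.6 CPM with NT shRNA (0.20 ± 0.36, adjusted p = 0.763). Its PROTAC libraries there were at 51.1, 32.6 and 76.5 CPM, against 44.2, 48.4 and 31.2 CPM with DMSO (0.37 ± 0.36, adjusted p = 0.538). Both MDA-MB-231 comparisons overlapped, with a replicate spread wider than the difference.

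KEAP1, the sensor that holds NRF2, was called in 1 comparison. In MDA-MB-231 it was at 178, 149 and 166 CPM with the PROTAC, against 91.6, 135 and 114 CPM with DMSO (0.53 ± 0.14, adjusted p = 0.0168). The groups did not overlap, but the call was lost without DMSO replicate 1 (0.40, adjusted p = 0.0517) or PROTAC replicate 1 (0.47, adjusted p = 0.0632). In libraries labelled MDM2 shRNA it was at 129.9, 159.7 and 136 CPM in MDA-MB-231, against 145, 118 and 122 CPM with NT shRNA (0.14 ± 0.14, adjusted p = 0.535). In MDA-MB-436 it was at 95.8, 66.2 and 58.7 CPM in libraries labelled MDM2 shRNA, against 78.3, 97.8 and 73.8 CPM with NT shRNA (-0.18 ± 0.17, adjusted p = 0.481). Its PROTAC libraries there were at 83.3, 71.6 and 85.4 CPM, against 76.2, 84.7 and 78.4 CPM with DMSO (0.01 ± 0.17, adjusted p = 0.986). The groups overlapped in these 3 comparisons.

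Of the 4 glutathione genes, 1 rose in both MDA-MB-231 comparisons, while 2 fell in MDA-MB-436 libraries labelled MDM2 shRNA and 3 fell with the PROTAC there. GCLM, the modifier subunit of the enzyme that limits glutathione synthesis, was at 107, 119.9 and 112 CPM in MDA-MB-231 libraries labelled MDM2 shRNA, against 93.2, 96.0 and 91.0 CPM with NT shRNA (0.28 ± 0.05, adjusted p = 0.00367). With the PROTAC in that line it was at 123, 119 and 113 CPM, against 89.7, 97.5 and 95.2 CPM with DMSO (0.33 ± 0.05, adjusted p = 0.00118). Every treated library was above every control. In MDA-MB-436 GCLM fell, at 48.5, 53.0 and 51.1 CPM in those labelled MDM2 shRNA, against 102, 90.1 and 100.04 CPM with NT shRNA (-0.94 ± 0.09, adjusted p = 1.41e-05). With the PROTAC it was at 49.4, 47.7 and 59.4 CPM, against 100.9, 105 and 109 CPM with DMSO (-1.01 ± 0.09, adjusted p = 8.21e-06). Every treated library was below every control, by about the same factor with both agents. GCLC, the catalytic subunit of the same enzyme, was not called, with changes of -0.31 to 0.40.

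GSR, glutathione reductase, was at 84.1, 93.3 and 87.3 CPM in MDA-MB-436 libraries labelled MDM2 shRNA, against 130.1, 137 and 135 CPM with NT shRNA (-0.60 ± 0.07, adjusted p = 4.12e-05). With the PROTAC it was at 84.9, 86.0 and 83.8 CPM, against 143, 124 and 129.6 CPM with DMSO (-0.64 ± 0.07, adjusted p = 2.45e-05). The treated libraries lay within a narrow band under all controls, and in MDA-MB-231 the changes of 0.10 and 0.13 were not called. SLC7A11, the cystine importer that feeds glutathione synthesis, fell with the PROTAC in MDA-MB-436, at 49.1, 55.0 and 65.8 CPM against 79.8, 73.9 and 83.9 CPM with DMSO (-0.48 ± 0.12, adjusted p = 0.0102). That call was lost without DMSO replicate 3 (adjusted p = 0.0507) and with library totals in place of TMM (adjusted p = 0.0728). In libraries labelled MDM2 shRNA it was at 47.4, 50.8 and 49.8 CPM, against 67.5, 50.9 and 65.2 CPM with NT shRNA (-0.31 ± 0.12, adjusted p = 0.0801). No library overlapped, but NT shRNA replicate 2 lay next to the treated ones, and without it SLC7A11 was called (-0.43, adjusted p = 0.019). In MDA-MB-231 SLC7A11 was at 157, 162 and 167 CPM in libraries labelled MDM2 shRNA against 156, 157 and 146 CPM with NT shRNA (0.08 ± 0.06, adjusted p = 0.415). Its PROTAC libraries there were at 173, 169 and 150.4 CPM, against 144, 156 and 144 CPM with DMSO (0.15 ± 0.06, adjusted p = 0.0992). The groups of MDA-MB-231 overlapped with both agents.

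All 4 thioredoxin genes fell with both agents in MDA-MB-436, beside 14.4% and 15.1% of all genes called lower. TXNRD1, the reductase that keeps thioredoxin active with NADPH, had the largest fall of any member in the libraries labelled MDM2 shRNA. It was at 234, 145 and 294 CPM there, against 743, 750.2 and 732 CPM with NT shRNA (-1.72 ± 0.26, adjusted p = 0.000392). With the PROTAC it was at 250.01, 302 and 184 CPM, against 523, 791 and 855 CPM with DMSO (-1.56 ± 0.26, adjusted p = 0.000699). Treated and control libraries were well apart. In MDA-MB-231 single libraries were low in each control group. TXNRD1 was at 448, 489 and 633 CPM in libraries labelled MDM2 shRNA, against 576, 289.5 and 527 CPM with NT shRNA (0.17 ± 0.28, adjusted p = 0.731). With the PROTAC it was at 629, 608 and 611 CPM, against 525, 542 and 273 CPM with DMSO (0.46 ± 0.28, adjusted p = 0.284). The PROTAC libraries were all above the DMSO ones, yet the change was under the threshold given the spread.

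SRXN1, sulfiredoxin, which repairs over-oxidized peroxiredoxins, was at 105, 99.0 and 102 CPM in MDA-MB-436 libraries labelled MDM2 shRNA, against 166, 167 and 168 CPM with NT shRNA (-0.71 ± 0.06, adjusted p = 9.04e-06). Under the PROTAC it was at 96.1, 107 and 93.0 CPM, against 150.4, 164 and 156 CPM with DMSO (-0.67 ± 0.06, adjusted p = 1.4e-05). The groups were far apart. In MDA-MB-231 it was at 76.1, 68.1 and 77.0 CPM in libraries labelled MDM2 shRNA, against 82.4, 88.6 and 83.8 CPM with NT shRNA (-0.20 ± 0.06, adjusted p = 0.0387). That call did not last when single libraries were left out (adjusted p up to 0.129) or with library totals (adjusted p = 0.276). With the PROTAC there SRXN1 was at 73.9, 74.3 and 80.8 CPM, against 86.3, 78.9 and 79.1 CPM with DMSO (-0.09 ± 0.06, adjusted p = 0.348), and the groups overlapped. SRXN1 shares 2292 of its 2698 exon bases with the same-strand gene AL121758.1, so its reads may not be separable.

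TXN, thioredoxin itself, was at 348, 319 and 329.8 CPM in MDA-MB-436 libraries labelled MDM2 shRNA, against 534, 487 and 519 CPM with NT shRNA (-0.63 ± 0.06, adjusted p = 1.68e-05). Under the PROTAC it was at 341, 306 and 306 CPM, against 446, 447 and 456 CPM with DMSO (-0.50 ± 0.06, adjusted p = 7.98e-05). No libraries overlapped. In MDA-MB-231 TXN fell by 0.09 on the log2 scale with the PROTAC (adjusted p = 0.0392), and its change of 0.00 in libraries labelled MDM2 shRNA was not called. PRDX1, a peroxiredoxin that thioredoxin recharges, fell in MDA-MB-436 by 0.78 with the hairpin label and by 1.01 with the PROTAC (adjusted p = 0.0164 and 0.00365). It overlaps the antisense gene MMACHC over 379 exon bases, and whether the counting used strand is not given in the sources used here. The same limit holds for 11 members in all, among them SLC7A11 (865 bases), NQO1 (575) and CBR1 (464). The rest are FTH1, NFE2L2, GCLC, IDH1, GSTM3, EPHX1 and UGDH.

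All 5 genes grouped under NADPH supply fell with both agents in MDA-MB-436, beside 14.4% and 15.1% of all genes called lower. Of the 5, 3 also fell with both in MDA-MB-231, beside 11.6% and 11.5% of all genes. TKT, transketolase of the pentose phosphate pathway, was at 314, 309 and 305 CPM in MDA-MB-436 libraries labelled MDM2 shRNA, against 634, 635 and 664 CPM with NT shRNA (-1.06 ± 0.07, adjusted p = 6.73e-07). Under the PROTAC it was at 332, 309.7 and 275 CPM, against 567, 601 and 568 CPM with DMSO (-0.92 ± 0.07, adjusted p = 1.79e-06). In MDA-MB-231 it was at 267, 311 and 261 CPM in libraries labelled MDM2 shRNA, against 372, 357 and 370.1 CPM with NT shRNA (-0.39 ± 0.06, adjusted p = 0.000742). No treated library overlapped its controls in these comparisons. With the PROTAC in MDA-MB-231 TKT was at 268, 262 and 280.4 CPM, against 365, 370.0 and 369 CPM with DMSO (-0.44 ± 0.06, adjusted p = 0.000297).

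IDH1, the cytosolic isocitrate dehydrogenase that makes NADPH, had the largest fall of the members with the PROTAC in MDA-MB-436. It was at 25.8, 26.2 and 28.4 CPM, against 76.1, 74.5 and 89.9 CPM with DMSO (-1.58 ± 0.10, adjusted p = 8.72e-07). In libraries labelled MDM2 shRNA it was at 29.5, 30.2 and 30.7 CPM, against 78.2, 66.7 and 85.4 CPM with NT shRNA (-1.35 ± 0.10, adjusted p = 2.92e-06). The treated libraries differed among themselves by less than the controls did. In MDA-MB-231 the falls of IDH1 were smaller, -0.28 ± 0.07 with the hairpin label (adjusted p = 0.0136) and -0.26 ± 0.07 with the PROTAC (adjusted p = 0.0193). ME1, malic enzyme, was at 56.2, 50.1 and 54.9 CPM in MDA-MB-436 libraries labelled MDM2 shRNA, against 90.1, 89.2 and 96.8 CPM with NT shRNA (-0.78 ± 0.07, adjusted p = 8.65e-06). Under the PROTAC it was at 53.6, 53.8 and 57.8 CPM, against 97.0, 105 and 98.9 CPM with DMSO (-0.86 ± 0.07, adjusted p = 3.86e-06). In MDA-MB-231 ME1 fell by 0.29 with the hairpin label and by 0.19 with the PROTAC (adjusted p = 0.00526 and 0.0431). PGD and TALDO1, the other pentose phosphate enzymes of the set, fell by 0.45 to 0.60 in MDA-MB-436 and were not called in MDA-MB-231.

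Of the 4 heme and iron genes, HMOX1 changed in all 4 comparisons and in opposite directions in the lines. HMOX1, heme oxygenase, was at 16.7, 19.2 and 16.5 CPM in MDA-MB-231 libraries labelled MDM2 shRNA, against 10.3, 10.7 and 11.6 CPM with NT shRNA (0.68 ± 0.09, adjusted p = 0.00034). Its PROTAC libraries there were at 17.7, 18.6 and 21.0 CPM, against 10.6, 10.9 and 9.90 CPM with DMSO (0.87 ± 0.09, adjusted p = 6.59e-05). Every treated library was above every control. In MDA-MB-436 it was at 27.3, 22.5 and 26.8 CPM in libraries labelled MDM2 shRNA, against 37.7, 39.1 and 40.8 CPM with NT shRNA (-0.62 ± 0.15, adjusted p = 0.00881). Its PROTAC libraries there were at 29.2, 25.4 and 18.6 CPM, against 31.4, 38.1 and 38.1 CPM with DMSO (-0.55 ± 0.15, adjusted p = 0.0152). Every treated library of MDA-MB-436 was below every control. The PROTAC call in MDA-MB-436 was lost without DMSO replicate 2 or replicate 3 (adjusted p = 0.062 and 0.066), with the 6 libraries alone (adjusted p = 0.0668), and with library totals (adjusted p = 0.0656).

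BLVRB, which reduces biliverdin, the product of heme oxygenase, rose with the PROTAC in both lines, by 0.46 in MDA-MB-231 and by 0.87 in MDA-MB-436 (adjusted p = 0.0148 and 0.000586). FTL, the ferritin light chain that stores iron, rose by 0.24 in MDA-MB-231 libraries labelled MDM2 shRNA (adjusted p = 0.0319). It fell by 0.60 in those of MDA-MB-436 (adjusted p = 0.00704), and with the PROTAC it was not called, with a change of 0.13 in MDA-MB-231 and one of -0.39 in MDA-MB-436. FTH1, the heavy chain, was not called in any comparison, with changes of -0.19 to 0.04.

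**Figure D2:**
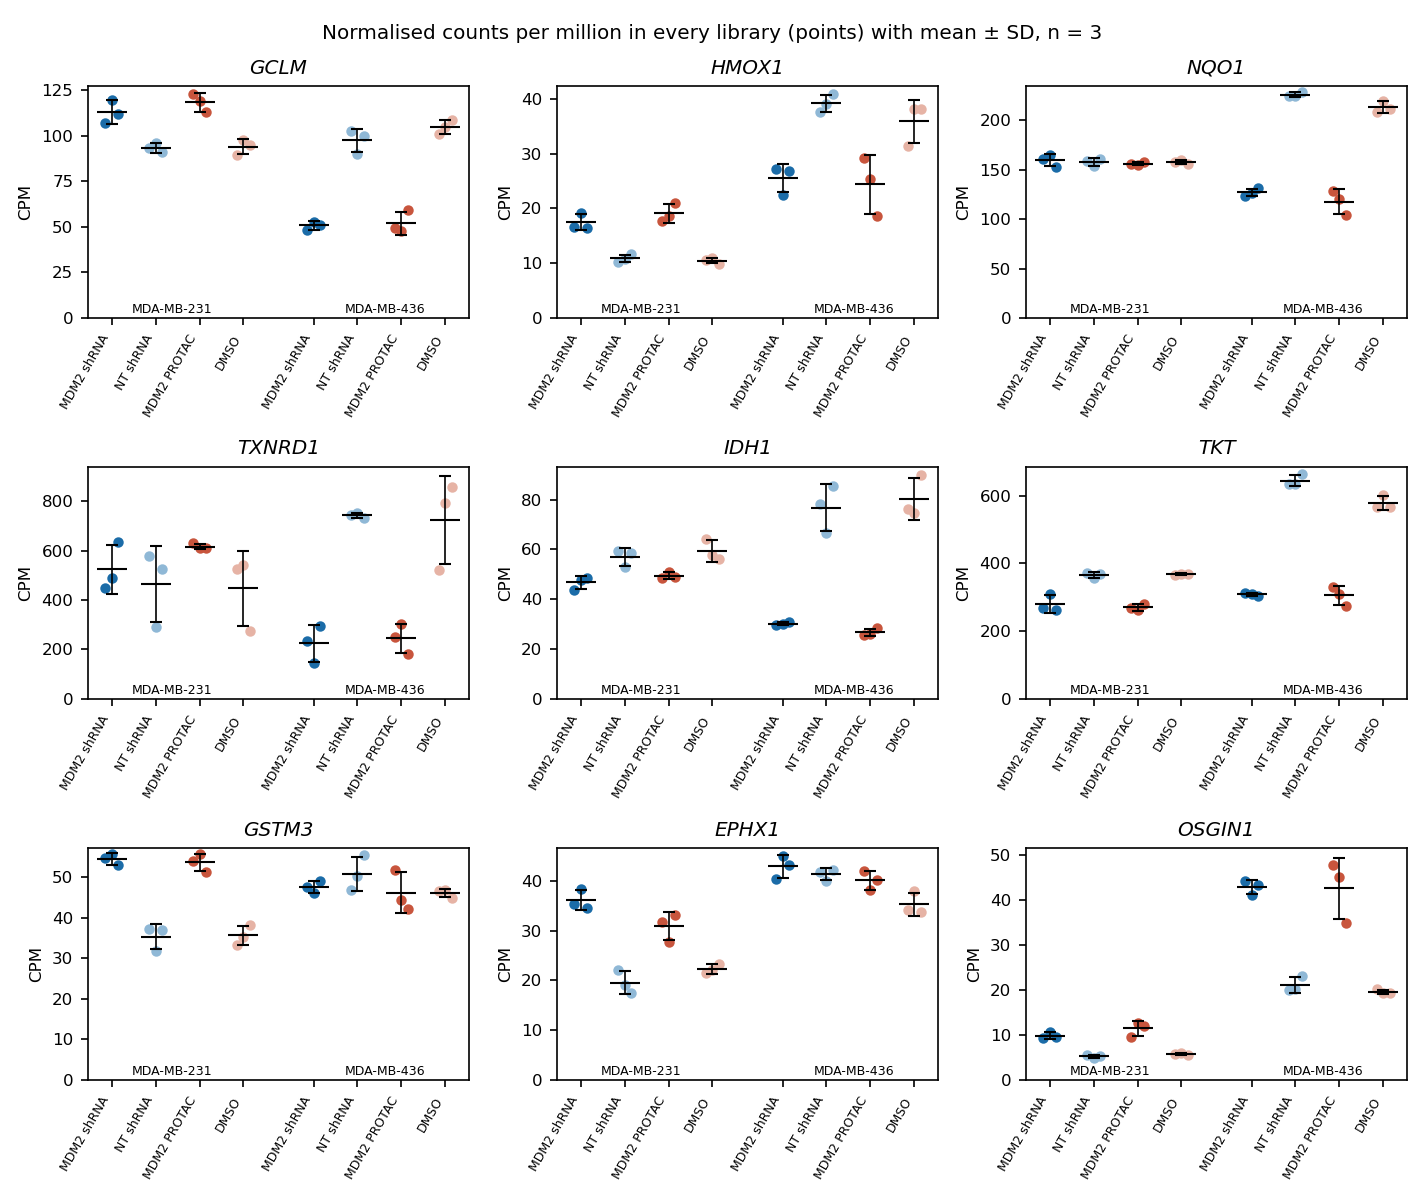
Normalised CPM (y axis, from 0) of 9 genes in every library (points), with the mean ± SD of 3 libraries (black), for MDM2 shRNA, NT shRNA, MDM2 PROTAC and DMSO of MDA-MB-231 and then of MDA-MB-436. GCLM and HMOX1 are above their controls in MDA-MB-231 and below them in MDA-MB-436, NQO1 is apart from its controls in MDA-MB-436, and OSGIN1 is above its controls in all 4 pairs.

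Of the 8 genes of quinone and carbonyl reduction, 3 fell and 2 rose with each agent in MDA-MB-436. NQO1, the quinone reductase often read as a marker of NRF2 activity, was at 124, 126 and 131 CPM in libraries labelled MDM2 shRNA, against 225, 224 and 228 CPM with NT shRNA (-0.83 ± 0.07, adjusted p = 7.7e-06). Under the PROTAC it was at 128, 121 and 104 CPM, against 208, 219.7 and 211 CPM with DMSO (-0.86 ± 0.07, adjusted p = 5.79e-06). The groups were far apart. In MDA-MB-231 NQO1 was at 161, 164 and 153 CPM in libraries labelled MDM2 shRNA, against 159, 154 and 161 CPM with NT shRNA (0.01 ± 0.04, adjusted p = 0.841). Under the PROTAC there it was at 155, 155 and 157 CPM, against 157, 159.7 and 156 CPM with DMSO (-0.02 ± 0.04, adjusted p = 0.822). The 95% interval of these changes ran from -0.07 to 0.10 for the shRNA and from -0.10 to 0.07 for the PROTAC. CBR1, a carbonyl reductase, fell in MDA-MB-436 by 0.61 and 0.54 (adjusted p = 0.00521 and 0.01), and it rose by 0.46 in MDA-MB-231 libraries labelled MDM2 shRNA (adjusted p = 0.0116).

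AKR1B1, an aldose reductase, rose in MDA-MB-436 by 0.20 with the hairpin label and by 0.35 with the PROTAC (adjusted p = 0.0357 and 0.00124). AKR1B15, a close relative, was at 2.58, 2.78 and 1.83 CPM in MDA-MB-436 libraries labelled MDM2 shRNA, against 0.0832, 0.0831 and 0.0802 CPM with NT shRNA. These were 494 counts against 23 over the 3 libraries of each group, and the fitted change was 4.84 ± 0.40 (adjusted p = 4.88e-06). PROTAC libraries were at 1.98, 2.85 and 4.601 CPM, against 0.362, 0.268 and 0.195 CPM with DMSO (648 against 44 counts, 3.51 ± 0.36, adjusted p = 2.36e-05). The 3 NT shRNA libraries were under the minimum of the filter on low counts, which the 3 libraries of each other group of this line passed, DMSO included. AKR1B10 and AKR1B15 are near-identical neighbours, and AKR1C1, AKR1C2 and AKR1C3 are another such group, so how their reads were divided is uncertain. AKR1C1 fell in MDA-MB-436 by 0.72 and 0.65 (adjusted p = 0.00505 and 0.00892). AKR1B10, AKR1C2 and AKR1C3 had standard errors of 0.19 to 0.80 and were not called.

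Among the 5 glutathione peroxidases and transferases, 3 were called higher with each agent in MDA-MB-231, against none in MDA-MB-436, where 1 fell with the hairpin label and 2 with the PROTAC. GSTM3, which joins glutathione to electrophiles, was at 54.9, 55.9 and 53.0 CPM in MDA-MB-231 libraries labelled MDM2 shRNA, against 37.3, 31.9 and 37.0 CPM with NT shRNA (0.62 ± 0.07, adjusted p = 0.00012). PROTAC libraries were at 54.1, 55.6 and 51.4 CPM, against 33.4, 35.4 and 38.2 CPM with DMSO (0.59 ± 0.07, adjusted p = 0.000189). Every treated library was above every control, while in MDA-MB-436 the changes of -0.10 and 0.00 were not called. GSTP1, another transferase, rose by 0.30 and 0.27 in MDA-MB-231 (adjusted p = 0.00395 and 0.008) and was not called in MDA-MB-436, at -0.28 and -0.13. MGST1, a membrane-bound transferase, rose by 0.46 in MDA-MB-231 libraries labelled MDM2 shRNA (adjusted p = 0.0334) and fell by 0.67 and 0.50 in MDA-MB-436 (adjusted p = 0.000137 and 0.000913). GPX2 was at most at 2.09 CPM in any library. With the PROTAC it had 116 counts against 46 with DMSO in MDA-MB-231 (1.51 ± 0.43, adjusted p = 0.0265) and 100 against 226 in MDA-MB-436 (-1.56 ± 0.49, adjusted p = 0.0308). With the hairpin label in MDA-MB-436 GPX2 lay the other way, at a mean of 0.982 CPM against 0.444 CPM with NT shRNA. Those libraries did not overlap, but the change was not called. The DMSO libraries of that line averaged 1.42 CPM, so its control groups differed as well. GPX4, which reduces lipid peroxides, was not called, with changes of -0.09 to 0.27.

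EPHX1, microsomal epoxide hydrolase, had the smallest adjusted p of the members in MDA-MB-231 libraries labelled MDM2 shRNA. It was at 35.5, 38.4 and 34.5 CPM, against 22.1, 19.2 and 17.5 CPM with NT shRNA (0.88 ± 0.10, adjusted p = 7.79e-05). With the PROTAC it rose by 0.47 ± 0.10 (adjusted p = 0.0049), and in MDA-MB-436 it was not called, at 0.05 and 0.18. UGDH, which makes UDP-glucuronic acid for conjugation, was not called, with changes of -0.01 to 0.12.

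All 3 efflux pumps of the set fell with both agents in MDA-MB-231, beside 11.6% and 11.5% of all genes called lower. Of the 3, 2 also fell with both in MDA-MB-436. ABCC1, which exports glutathione conjugates, was at 88.8, 82.5 and 87.7 CPM in MDA-MB-231 libraries labelled MDM2 shRNA, against 118, 112 and 111 CPM with NT shRNA (-0.40 ± 0.05, adjusted p = 0.00024). Under the PROTAC there it was at 87.6, 85.4 and 92.6 CPM, against 119, 113 and 109 CPM with DMSO (-0.36 ± 0.05, adjusted p = 0.000542). No libraries overlapped, and in MDA-MB-436 it fell by 0.40 and 0.61 (adjusted p = 0.0085 and 0.000504). ABCC3, a related pump, was at 5.97, 5.38 and 5.95 CPM with the PROTAC in MDA-MB-231, against 10.3, 9.95 and 9.06 CPM with DMSO (-0.76 ± 0.12, adjusted p = 0.00095). With the hairpin label there it fell by 0.75 (adjusted p = 0.00101), and in MDA-MB-436 by 0.55 and 0.59 (adjusted p = 0.00289 and 0.00187). ABCC2, at 0.294 to 2.65 CPM in MDA-MB-231, fell there by 1.24 with the hairpin label and by 2.07 with the PROTAC (adjusted p = 0.0176 and 0.00103). In MDA-MB-436 its changes of -0.29 and -0.39 were not called.

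OSGIN1, an oxidative-stress-induced growth inhibitor, rose in every comparison. In MDA-MB-231 it was at 9.28, 10.8 and 9.62 CPM in libraries labelled MDM2 shRNA, against 5.50, 4.97 and 5.30 CPM with NT shRNA (0.91 ± 0.11, adjusted p = 0.000169). Under the PROTAC there it was at 9.68, 12.7 and 12.1 CPM, against 5.84, 5.93 and 5.53 CPM with DMSO (0.99 ± 0.11, adjusted p = 9.83e-05). In MDA-MB-436 it was at 44.3, 41.2 and 43.5 CPM in libraries labelled MDM2 shRNA, against 19.96, 20.3 and 23.3 CPM with NT shRNA (1.02 ± 0.11, adjusted p = 4.62e-05). Every treated library stood above its controls in these 3 comparisons. With the PROTAC in MDA-MB-436 OSGIN1 was at 47.8, 45.3 and 35.0 CPM, against 20.2, 19.3 and 19.4 CPM with DMSO (1.12 ± 0.11, adjusted p = 2.18e-05). OSGIN1 shares 481 exon bases with AC009119.2 on the same strand.

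The hairpin label and the PROTAC gave largely the same calls among the members. The 2 comparisons of a line have separate controls, NT shRNA and DMSO. In MDA-MB-231, 6 of the 9 higher and 6 of the 7 lower members were shared. In MDA-MB-436, 3 of the 4 higher members were shared, and 18 lower members made up 94.7% of those lower with the hairpin label and 90% of those lower with the PROTAC. Shared calls over all genes were not counted, so whether these shares are particular to the members cannot be said. The difference between the 2 effects was tested in the same fit. No member was called in either line by edgeR, DESeq2 or limma voom, and 1 gene of all tested was called by edgeR in each line (0.00484% and 0.00441%), 1 in each by limma voom, while DESeq2 called 38 genes for MDA-MB-231 and 35 for MDA-MB-436. At an unadjusted p under 0.05 the MDA-MB-231 fit held 2 members and the MDA-MB-436 fit 5. For the PROTAC effect less the shRNA effect, the 95% interval ran from -0.11 to 0.22 for GCLM and -0.15 to 0.09 for NQO1 in MDA-MB-231. It ran in MDA-MB-436 from -0.34 to 0.21 for GCLM and -0.25 to 0.20 for NQO1, but -1.78 to -0.29 for NFE2L2 (adjusted p = 0.905). These intervals are wide for low or noisy members, and a p over the threshold does not show that the agents act alike.

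The difference between the lines was tested in a fit of all 24 libraries. For the shRNA effect, 19 of 38 members were called lower in MDA-MB-436 than in MDA-MB-231 and 1 higher, beside 9.77% and 9.94% of all genes. For the PROTAC effect, 19 were called lower and 1 higher, beside 10.5% and 11.8% of all genes. Of the 31 members averaging 10 CPM or more, 19 were lower for the shRNA effect and 18 for the PROTAC effect. The called share of all genes at that level is not given here. The median difference at that level was -0.59 for members against -0.06 for all genes (shRNA), and -0.53 against -0.04 (PROTAC). How many of all genes were lower for both effects was not counted. The same 17 members were lower in both: CBR1, FTL, GCLM, GSR, GSTM3, HMOX1, IDH1, ME1, MGST1, NQO1, PGD, SLC7A11, SRXN1, TALDO1, TKT, TXN and TXNRD1. EPHX1 and GSTP1 joined them for the shRNA, and GCLC and GPX2 for the PROTAC. TKT, ME1 and IDH1 are therefore members that fell in both lines and fell further in MDA-MB-436, while the falls of ABCC1 and ABCC3 and the rise of OSGIN1 were not called different between lines. The higher member was AKR1B15 for the shRNA, which had 6 counts in all MDA-MB-231 libraries together, so a response in that line was not measurable, and ABCC2 for the PROTAC (1.68 ± 0.38, adjusted p = 0.00281).

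**Figure D3:**
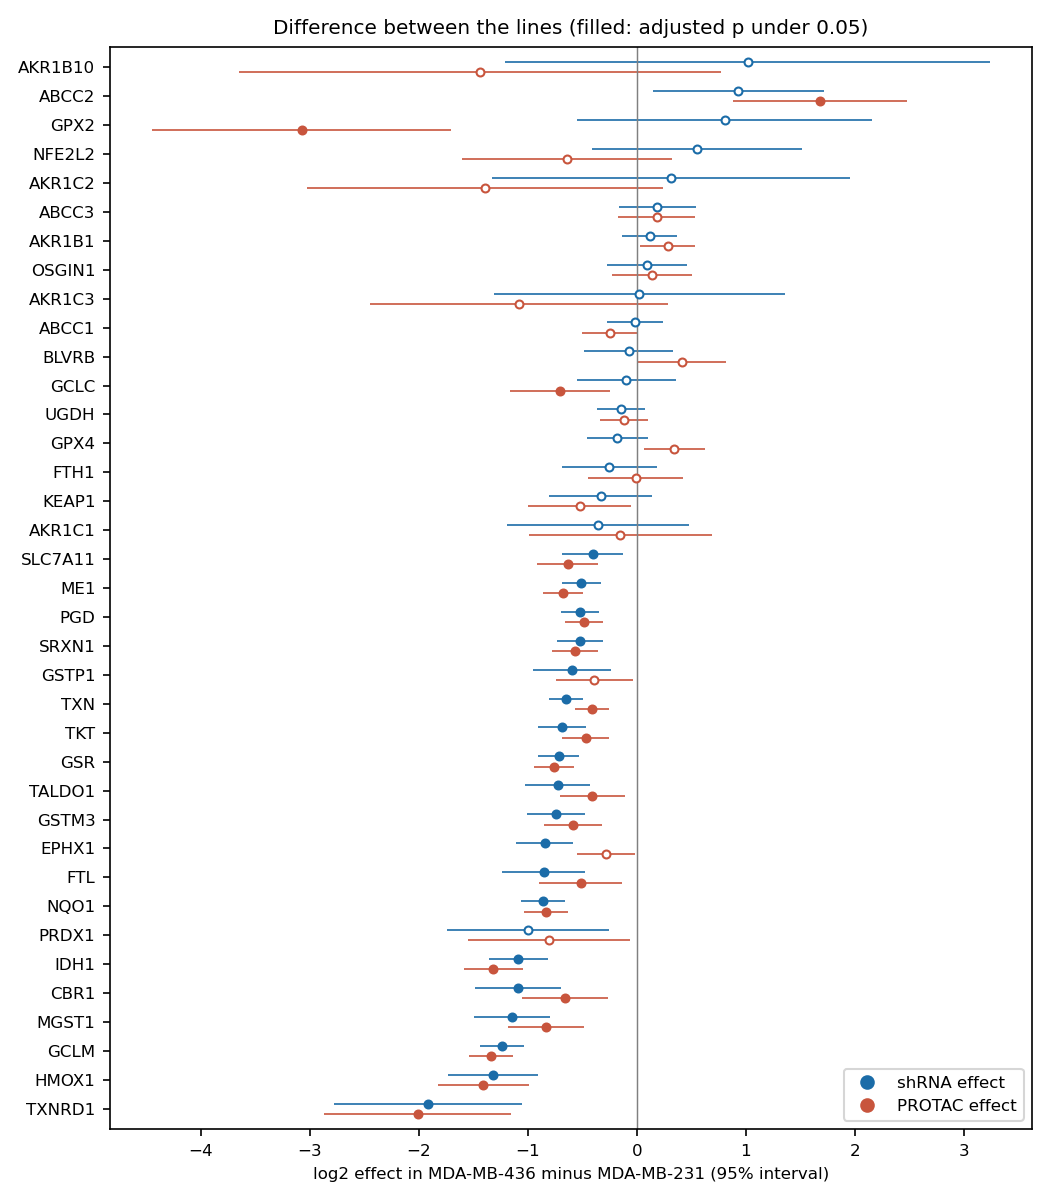
Difference of each gene's log2 effect, MDA-MB-436 minus MDA-MB-231 (x axis, with 95% interval), for the shRNA effect in blue and the PROTAC effect in red, with filled points called. The 37 genes (y axis) are ordered by the shRNA difference, AKR1B15 is left out because its counts in MDA-MB-231 were near 0, and 17 genes have both points filled left of 0.

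The lines also differed before treatment. These values come from the NT shRNA and DMSO libraries, which also serve as controls above, so they are set beside the treatment effects and not related to them. Over the 6 control libraries of each line, 28 of 38 members were higher in MDA-MB-436 and 5 lower, beside 35.9% and 30.9% of all genes. Of the 31 members averaging 10 CPM or more, 22 were higher and 4 lower, and the share of all genes at that level is not given here. The 28 include AKR1B15. By the filter on low counts within each line, no MDA-MB-231 library and no NT shRNA library of MDA-MB-436 reached the minimum for it. Its direction is therefore not read as a result. AKR1B1 was higher by 3.43 ± 0.07 on the log2 scale (adjusted p = 1.38e-19), at 748 to 955 CPM in MDA-MB-436 controls against 70.0 to 90.0 CPM in those of MDA-MB-231, scaled over all 24 libraries. FTH1 was higher by 2.47 ± 0.11 (adjusted p = 5.07e-14), ME1 by 1.79 ± 0.04 (adjusted p = 5.71e-18) and GSR by 1.16 ± 0.05 (adjusted p = 6.54e-15). HMOX1 was higher by 1.76, OSGIN1 by 1.83, SRXN1 by 0.91, TXNRD1 by 0.63 and NQO1 by 0.42, each called. The 5 lower members were SLC7A11 (-1.17 ± 0.07, adjusted p = 4.2e-12), AKR1C3, KEAP1 (-0.63 ± 0.11, adjusted p = 5.84e-05), TALDO1 and PGD. GCLM (0.05, interval -0.05 to 0.15), NFE2L2 (0.33, -0.15 to 0.81), ABCC1, GCLC and GPX4 were not called different. FTH1 shares 1267 exon bases with the antisense gene BEST1.

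Per kilobase of exon, which allows genes to be compared, the set spans orders of magnitude in the controls. FTL was the most abundant member in both lines, at 3679 ± 424 CPM per kb in MDA-MB-436 and 1516 ± 61.4 in MDA-MB-231 (SD over 6 control libraries). In MDA-MB-436 it was followed by FTH1 (923 ± 104), PRDX1 (539.7 ± 116), TXN (414 ± 38.5), AKR1B1 (226 ± 22.5) and GSTP1 (172 ± 19.8). In MDA-MB-231 the next were TXN (387 ± 10.7), PRDX1 (351 ± 81.9), FTH1 (166 ± 18.05), PGD (94.7 ± 3.40) and TXNRD1 (69.3 ± 20.7). Most neighbours in these orders overlapped in range, 28 of 37 neighbouring pairs in MDA-MB-436 and 23 of 37 in MDA-MB-231.

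**Figure D4:**
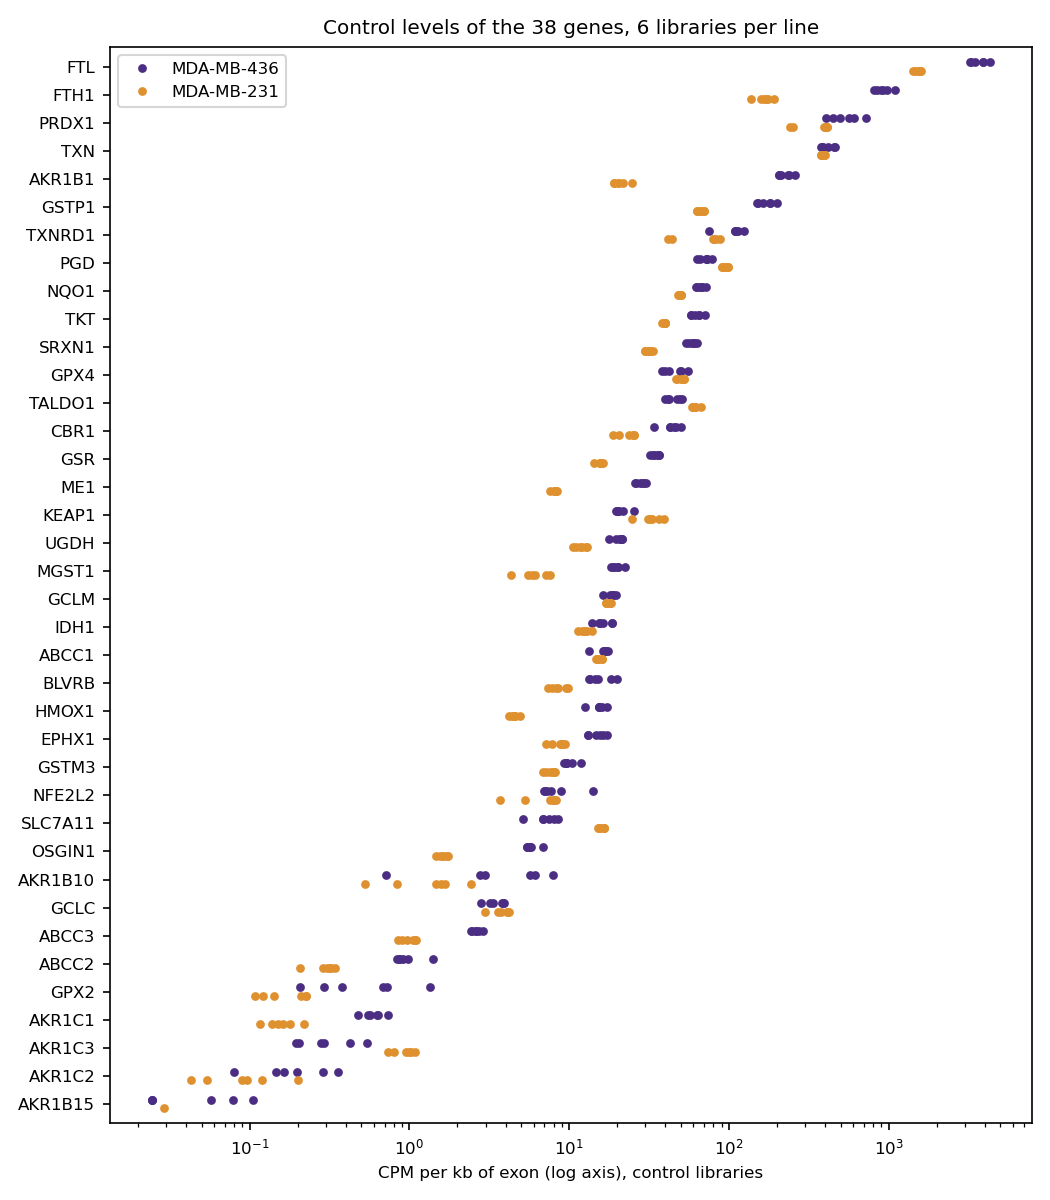
Level per length (x axis, CPM per kb of exon, log axis) of the 38 genes (y axis, ordered by MDA-MB-436) in the 6 control libraries of MDA-MB-436 (purple) and of MDA-MB-231 (orange). Libraries with no count of AKR1B15 are not drawn, and AKR1B1 and FTH1 show the widest gaps between the lines among the abundant genes.

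Beyond the 38, 45 further genes of the pathway and of other antioxidant enzymes were listed. In MDA-MB-231, 8 of 45 were called higher and 3 lower with the hairpin label, and 10 higher and 4 lower with the PROTAC, beside 11.1% of all genes higher with each and 11.6% and 11.5% lower. That is 17.8% and 22.2% of the listed genes higher and 6.67% and 8.89% lower. In MDA-MB-436, 8 of 44 were called higher and 14 lower with the hairpin label, and 10 higher and 14 lower with the PROTAC, beside 16% and 17.3% of all genes higher and 14.4% and 15.1% lower. The share of listed genes higher with the hairpin label, 18.2%, was near that of all genes, and the share lower was 31.8% with each agent. Of these, MAFF, ABCG2 and TXNIP were higher in all 4 comparisons and ABCC4, an efflux pump, was lower in all 4.

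Of the 10 other pathway regulators, 3 rose and 1 fell with the hairpin label in MDA-MB-231, and 4 rose and 0 fell with the PROTAC there. In MDA-MB-436, 3 rose and 4 fell with the hairpin label, and 3 rose and 3 fell with the PROTAC, and the 3 that rose were the small MAF partners MAFF, MAFK and MAFG. Set against the shares of all genes given above, 10 genes are too few to read these counts as particular to the regulators. MAFF was at 94.9, 92.9 and 95.5 CPM in MDA-MB-231 libraries labelled MDM2 shRNA, against 20.8, 22.9 and 19.3 CPM with NT shRNA (2.17 ± 0.10, adjusted p = 1.77e-07). Under the PROTAC there it was at 31.4, 30.3 and 35.1 CPM, against 22.8, 18.04 and 18.3 CPM with DMSO (0.71 ± 0.10, adjusted p = 0.00041). MAFF was the gene whose PROTAC effect was called lower than its shRNA effect in MDA-MB-231. MAFK rose in MDA-MB-436 by 1.31 and 1.13 (adjusted p = 1.37e-06 and 3.86e-06). BACH1, a repressor that competes with NRF2 for its elements, rose in MDA-MB-231 by 0.40 and 0.51 (adjusted p = 0.00721 and 0.00164). SQSTM1, an autophagy receptor that sequesters KEAP1, rose there by 0.64 and 0.83 (adjusted p = 0.011 and 0.00242). SQSTM1 shares 1687 exon bases with antisense genes, and MAFK 809. In MDA-MB-436 CUL3, the scaffold of the ligase that degrades NRF2, fell by 0.70 and 0.79 (adjusted p = 6.33e-05 and 2.47e-05), and it fell by 0.18 with the hairpin label in MDA-MB-231 (adjusted p = 0.0323). GSK3B, a kinase that marks NRF2 for another ligase, fell in MDA-MB-436 by 0.65 and 0.68 (adjusted p = 9.78e-06 and 6.86e-06).

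Among the other enzymes, TXNIP, which binds and inhibits thioredoxin, rose by 0.40 and 0.53 in MDA-MB-231 (adjusted p = 0.000189 and 2.72e-05) and by 1.40 and 1.35 in MDA-MB-436 (adjusted p = 3.36e-08 and 4.07e-08). SOD1, cytosolic superoxide dismutase, fell by 0.49 with each agent in MDA-MB-436 (adjusted p = 0.000121 and 0.000109), while it rose by 0.25 with the PROTAC in MDA-MB-231 (adjusted p = 0.0488). PRDX3, a mitochondrial peroxiredoxin, fell in MDA-MB-436 by 0.52 and 0.49 (adjusted p = 1.6e-05 and 2.41e-05). GGT1, which begins the breakdown of extracellular glutathione, rose there by 1.16 and 1.25 (adjusted p = 4.89e-06 and 2.69e-06). ABCG2, an efflux pump, rose there by 1.87 and 1.64 (adjusted p = 5.53e-06 and 1.29e-05). GSS, which completes glutathione synthesis, rose by 0.26 and 0.24 in MDA-MB-231 (adjusted p = 0.00153 and 0.00236).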

How the data were processed

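Total RNA was isolated with TRIzol and made into NEBNext Ultra II libraries for an Illumina HiSeq, per the labels' protocols. The authors deposited whole-number counts per Ensembl gene, one file per library. The submitters' processing notes name cutadapt 2.4, HISAT2, StringTie, edgeR and the GRCh38 build, with no roles, and the use of strand is not given in the sources used here. Counting precision is set by totals of 33413988 to 174744841 counts per library. In all 24 libraries more genes had a count of 4 than of 3 (1.03 to 1.63 times as many), so low counts may overstate the number of independent reads. The cause was not tested.

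The members and gene lists were chosen with earlier results of these data known. Full values are given for NFE2L2, KEAP1, NQO1, HMOX1, GCLM, SLC7A11, TXNRD1 and SRXN1, for the 6 called members with the smallest adjusted p and a mean of at least 1 CPM per comparison, and for the 4 with the smallest adjusted p per difference. In a comparison where a member is not among these, its change is mostly given alone. Library values are also given for OSGIN1 in MDA-MB-436 and for AKR1B15 with the PROTAC there. Up to 3 called genes per other list were named, and some of them are given as counts only. Genes passing filterByExpr were fitted in R 4.3.3 with edgeR 4.0.16 (TMM, glmQLFit, glmQLFTest), the 12 libraries of a line together (8 residual degrees of freedom) or all 24 (16), with Benjamini-Hochberg adjustment over all genes. Exon lengths and overlaps came from GENCODE 29. The code was tested on simulated data. Alternatives were RLE factors, library totals, no filter, DESeq2 1.42.0, limma 3.58.1 voom, a replicate block, only the libraries compared, counts divided by 4, and each library left out. Chosen after seeing the data were leaving out the deepest and shallowest libraries and the background of genes with at least 10 CPM. Replicate numbers shared across groups did not pair the libraries.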

Additional observations from a re-analysis of the deposited data

Results flagged for a closer look

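The members below responded differently in the 2 lines by a test of the difference itself, in the fit of all 24 libraries. They are the called ones among the members always given in full and the 4 with the smallest adjusted p per difference. TKT, ME1 and GSTM3 were also called for both effects, and EPHX1 for the shRNA effect. TXN and GSR were called for both effects, though each is listed once. All called members stand in the report. The values are the log2 effect in MDA-MB-436 minus that in MDA-MB-231, with edgeR's adjusted p, and the effects in each line stand in the report. For the shRNA effect the differences were -1.24 for GCLM (adjusted p = 2.27e-08), -1.32 for HMOX1 (6.55e-05), -1.92 for TXNRD1 (0.00195), -1.09 for IDH1 (4.07e-06), -0.86 for NQO1 (1.99e-06), -0.65 for TXN (3.26e-06), -0.53 for SRXN1 (0.000709) and -0.41 for SLC7A11 (0.0386). For the PROTAC effect they were -1.34 for GCLM (adjusted p = 6.74e-09), -1.41 for HMOX1 (2.77e-05), -2.01 for TXNRD1 (0.00115), -1.32 for IDH1 (3.44e-07), -0.83 for NQO1 (2.59e-06), -0.76 for GSR (3.2e-06), -0.57 for SRXN1 (0.000296) and -0.63 for SLC7A11 (0.00166). GCLM and HMOX1 moved in opposite directions in the lines with both agents. TXNRD1 varied widely between control libraries of MDA-MB-231, and the interval of its difference was -2.77 to -1.06 for the shRNA and -2.87 to -1.15 for the PROTAC. With 3 libraries in a group, single libraries were not tested as outliers.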

How the results depend on the processing

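Of the counts of called members, those in MDA-MB-231 depended most on scaling. With library totals in place of TMM, members called higher became 15 for the shRNA and 15 for the PROTAC, and members called lower became 4 for the PROTAC. That scaling raised the median log2 change of all genes by 0.10 for the shRNA and 0.0831 for the PROTAC in MDA-MB-231, and by 0.179 and 0.165 in MDA-MB-436. Leaving out each library in turn gave 6 to 9 higher and 4 to 7 lower members for the shRNA in MDA-MB-231, and 8 to 10 higher and 4 to 6 lower for the PROTAC. In MDA-MB-436 it gave 2 to 4 higher and 19 to 20 lower for the shRNA, with 2 higher without NT shRNA replicate 1 or 2 or MDM2 shRNA replicate 1, and 4 to 5 higher and 18 to 23 lower for the PROTAC. Differences between lines ran from 18 to 22 members for the shRNA and 17 to 22 for the PROTAC, controls from 30 to 34, and the agents' difference gave 0 members each time.

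The 49 changes recomputed were the 8 members always given in full and the 6 with the smallest adjusted p in each treatment comparison. Of the 49, 35 were called and none of these changed sign in any alternative run. GSR, TXN and OSGIN1 in MDA-MB-436, and AKR1B15 with the PROTAC there, are also given by library but were not among the 49. The alternative runs covered them only within the counts of called members. The uncalled values that did were near 0: for the PROTAC NQO1 in MDA-MB-231 was at 0.0666 with library totals, and KEAP1 in MDA-MB-436 for the shRNA was at 0.00119 with library totals. KEAP1 in MDA-MB-436 for the PROTAC was at -0.000787 with RLE factors, -0.00153 with no filter, -0.000783 with DESeq2, -0.0168 with voom and -0.0473 without the deepest and shallowest libraries. With single libraries left out it ran from -0.0472 to 0.0684. For the shRNA in MDA-MB-231, NFE2L2 then ran from -0.097 to 0.414, NQO1 from -0.0175 to 0.0447 and TXNRD1 from -0.0886 to 0.347, and for the PROTAC in MDA-MB-436 NFE2L2 ran from -0.444 to 0.0569. The causes were not tested.

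The correlation of the deviations of same-numbered libraries was -0.0807 to 0.0682, so the numbers did not pair the libraries. With the replicate block, 8 higher and 6 lower members were called for the shRNA and 9 and 5 for the PROTAC in MDA-MB-231, and 3 and 19, and 4 and 19, in MDA-MB-436. SRXN1 lost its call in MDA-MB-231 under the block (adjusted p = 0.0581). With counts divided by 4, all 49 changes kept their direction and their side of the threshold. Depth limits AKR1B15, GPX2 and AKR1C2, which had few counts.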
